A study of Mus musculus with 52 samples.

Results

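Serum withdrawal and ciliation were compared in unedited control clones of a mouse kidney epithelial line. The samples were chosen by their labels alone: all ciliated and all non-ciliated control libraries, which came to 32 of the 52 libraries of the series and 8 of its 13 clone names. The cells were Cilia-APEX-IMCD3, an immortalised line of the mouse inner medullary collecting duct that carries a peroxidase fused to a ciliary targeting sequence. Every control clone had received a plasmid for the cytosine base editor BE4-Gam together with the guide plasmid BPK1520 carrying no target sequence, and had been grown from a single sorted cell. The non-ciliated group held the clones AB_Co, BE_Co1, BE_Co2 and BE_Co3, and the ciliated group held the clones D8, H12, A4 and G7, with 4 libraries from each clone. In the methods of the study, ciliated cells were starved in low-serum medium before RNA extraction and non-ciliated cells were grown in full serum, whereas the labels give the full-serum growth medium for all samples. Sequencing of the non-ciliated cells had ended before one of the mutant lines later used in the ciliated set existed, which places the ciliated set at a later time. Dates for single libraries are not given in the sources used here. State, serum and sequencing time therefore cannot be told apart, and no label names the same clone in both states. The sources used here describe 4 different controls for RNA sequencing, so the 8 names may stand for fewer distinct clones.

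The primary cilium is a single antenna-like projection that grows from the mother centriole when a cell leaves the division cycle. Serum holds growth factors, hormones and lipids, and its withdrawal is the standard means of inducing cilia in kidney epithelial lines, because growth factor signalling through the PI3K and mTOR kinases falls, cells stop dividing and the centriole is freed to form the basal body. Ciliary proteins are carried along the axoneme by intraflagellar transport (IFT) trains, moved outwards by kinesin-2 and back by dynein-2. WDR34 and WDR60 are intermediate chains of dynein-2, and the mutant clones of the series carry base edits in one or the other gene.

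The deposited values were raw read counts per gene. Library totals ran from 15617398 to 21085697 counts in the non-ciliated state and from 14816218 to 28084979 counts in the ciliated state. The 4 libraries of a clone were technical replicates and were added, which gave 64841603 to 77304019 counts per clone and 4 clones in each state. Levels below are CPM, the clone sums relative to library size after scaling by trimmed mean of M values (TMM). Such levels are not per gene length, so they compare clones and not genes. Differences are log2 of the ciliated over the non-ciliated level, with their standard error (SE) and the Benjamini-Hochberg adjusted p of edgeR's quasi-likelihood test over all 13119 genes tested. A gene is said to have risen or fallen where that p was below 0.05 and the level changed at least 2-fold. In bulk RNA, fewer cells of a type and less RNA per cell cannot be told apart.

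The ciliated clones had 366 genes that rose, 2.79% of those tested, and 294 that fell, 2.24%. The median log2 difference over all tested genes was 0.011. Without the limit on the fold, 802 genes were higher (6.11%) and 962 lower (7.33%) at the adjusted p. The clone levels of the states did not overlap for 1321 genes that were higher in every ciliated clone (10.1%) and for 1613 that were lower (12.3%). These 2934 genes reached 0.0286, the smallest p that an exact 2-sided permutation test allows with 70 splits of 8 clones. Of the genes that rose, 350 had clone levels without overlap, as did 279 of those that fell. The counts depend on single clones: 89 genes rose and 75 fell without BE_Co1, and 125 rose and 135 fell without BE_Co3. Leaving out H12 gave 164 rises and 148 falls, leaving out A4 197 and 157, and leaving out AB_Co 214 rises. In all of these fits the 660 genes called with all clones kept their direction. Where clone levels do not overlap, leaving out a clone can hardly reverse the sign, so this adds little support.

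Clones differed widely within a state. The first principal component of the clone levels held 46.1% of the variance and set BE_Co2 and G7, at 75.4 and 116 units, apart from the other 6 clones at -49.8 to -12.1. The second component held 25.6% and separated the states, with the non-ciliated clones at 19.5 to 57.7 and the ciliated clones at -65.0 to -23.0. The difference between the states took 24.7% of the variance summed over genes. The median within-state standard deviation of a gene was 0.33 on the log2 scale, beside a median absolute state difference of 0.39.

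**Figure D1:**
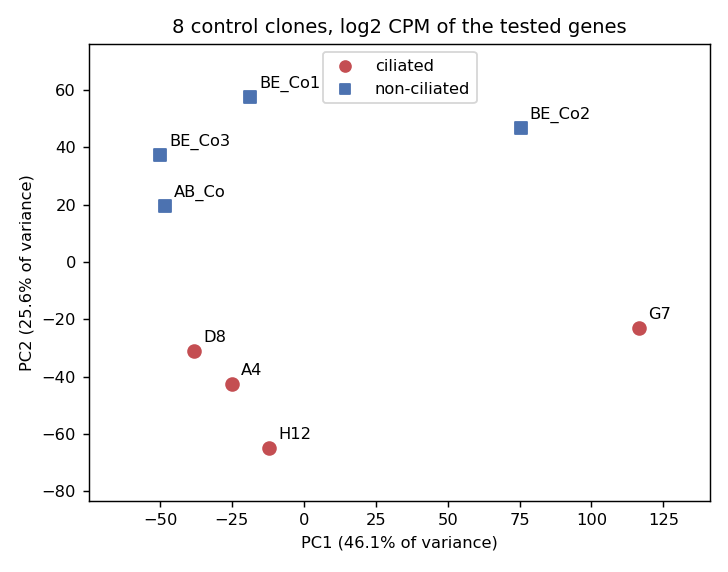
The 8 control clones on the first and second principal components of log2 CPM, with the share of variance on each axis. BE_Co2 and G7 lie apart from the others on the first component (46.1%), and the states separate on the second (25.6%).

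Median expression by chromosome showed clone-specific levels that crossed the states. Relative to the mean of all 8 clones, the genes of chromosome 1 had a median of -0.42 on the log2 scale in BE_Co2 and -0.43 in G7. On chromosome 3 the median was -0.35 in BE_Co3 and -0.32 in D8, but 0.34 in AB_Co and 0.28 in H12. Chromosome 6 was at -0.40 in AB_Co and -0.31 in H12. Over the 20 chromosomes, the profile of G7 correlated with that of BE_Co2 at r = 0.92, D8 with BE_Co3 at 0.92, H12 with AB_Co at 0.65 and A4 with BE_Co1 at 0.46. These coefficients describe chromosomes that share libraries and scaling, and the labels do not pair the clones, so no paired test was made on them. If a clone stands in both states under different names, the tests here, which treat the clones as independent, leave that pairing out.

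**Figure D2:**
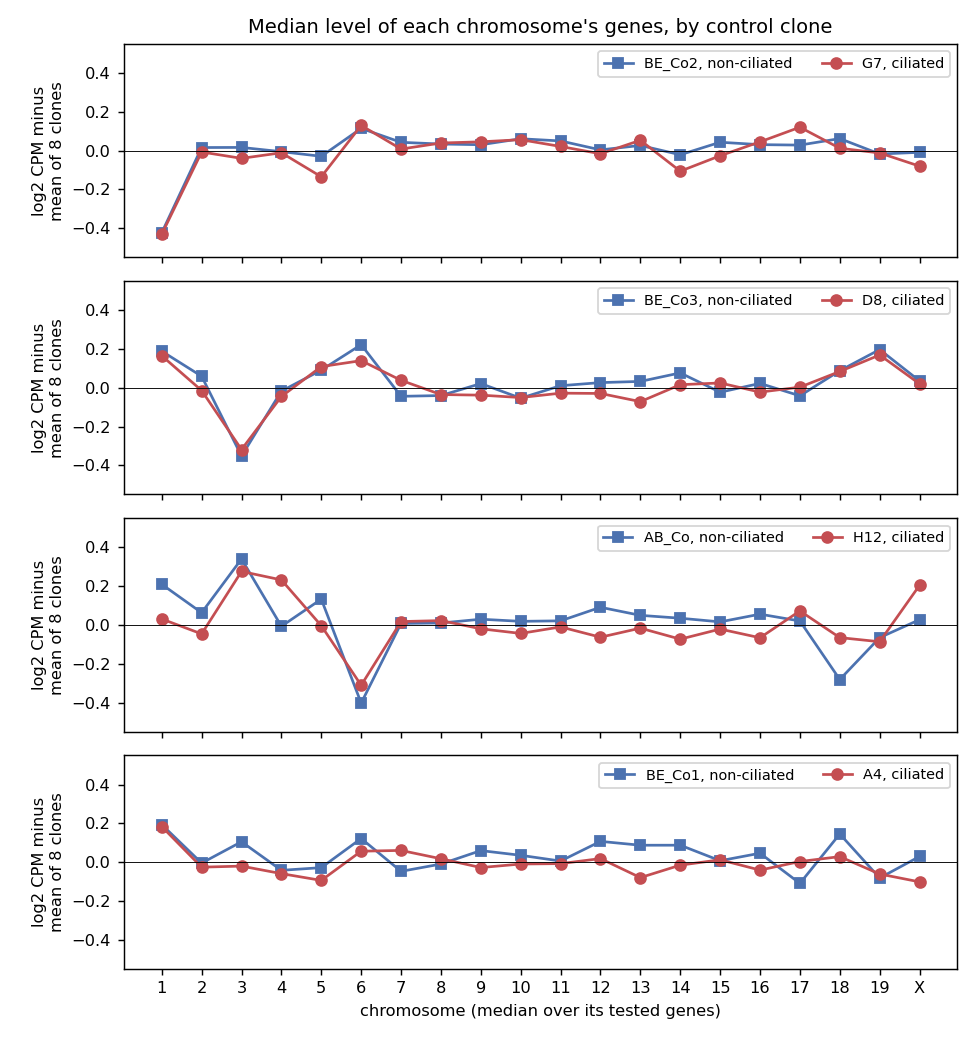
Median log2 level of the genes on each chromosome, relative to the mean of the 8 clones, with a ciliated and a non-ciliated clone drawn together where their profiles were most alike. The pairs were chosen for this likeness (r = 0.92, 0.92, 0.65 and 0.46 over 20 chromosomes), and both G7 and BE_Co2 were low on chromosome 1.

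The kidney identity of the line was checked against defining markers. Pax8, a transcription factor of the nephric lineage, ran at 152, 267, 299.9 and 227 CPM in the non-ciliated clones AB_Co, BE_Co1, BE_Co2 and BE_Co3 and at 272, 274, 279 and 414 in the ciliated clones D8, H12, A4 and G7. All lists of 8 values below keep this order of clones. Hoxb7, of the ureteric bud lineage, was present in all 8 clones. Aqp2, the vasopressin-regulated water channel that defines principal cells of the collecting duct, had 0 counts in all 8 clones, where the floor of 3 counts corresponds to 0.0388 to 0.0463 CPM before scaling. The proximal tubule phosphate transporter Slc34a1 was also at 0, but other genes of its list were not. Of the 9 genes of the proximal tubule list, 4 had 0 counts in every clone and 4 were above 1 CPM in at least 1. That list summed to 39.7 to 302 CPM in non-ciliated and 17.7 to 430 CPM in ciliated clones. Summed levels of the endothelial list were 0.0409 to 0.135 CPM in non-ciliated and 0.0703 to 0.203 CPM in ciliated clones, with 0 of 6 genes above 1 CPM in any clone. The immune list summed to 3.11 to 5.43 and 1.12 to 4.37 CPM, with 1 of 6 genes above 1 CPM.

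In the list of epithelial junctions and keratins, BE_Co2 and G7 were both the lowest clone of their state for most genes. Cldn1, Tjp1 and Tjp3 were exceptions. Cdh1, which encodes the adherens junction protein E-cadherin, was at 393, 256, 4.26 and 349 CPM in the non-ciliated and 609, 627, 643 and 13.8 CPM in the ciliated clones. Epcam, another epithelial adhesion molecule, was at 382, 184, 2.89 and 264 CPM and 631, 741, 827 and 13.5 CPM. The keratin gene Krt7 was at 3.78 CPM in BE_Co2 and 3.80 CPM in G7, beside 273 to 925 CPM in the other clones. Esrp1, of the same list, was at 0.928 CPM in BE_Co2 and 2.11 CPM in G7, beside 83.6 to 203 CPM. The claudin gene Cldn1 was instead highest in these clones, at 26.8, 24.6, 64.4 and 56.2 CPM and 25.7, 9.11, 2.68 and 62.1 CPM. Tjp1, of the same list, was at 437, 486, 267 and 410 CPM and 300, 199, 327 and 261 CPM. Other lists gave mixed values in these clones. Of the proximal tubule list, the endocytic receptor gene Lrp2 was at 272 CPM in BE_Co2 and 423 CPM in G7 beside 11.7 to 97.1 CPM in the other clones, whereas Gatm, of creatine synthesis, was at 12.7, 2.22, 0.0955 and 10.2 CPM and 2.03, 0.0257, 0.857 and 0 CPM. Zeb1, a repressor of epithelial genes, was at 82.0 CPM in BE_Co2 and 67.9 CPM in G7 and at 0.462 to 39.2 CPM elsewhere. The matrix gene Postn, of the fibroblast list, was at 7.45 CPM in BE_Co2 and 28.6 CPM in G7 and below 1 CPM elsewhere. Each state held 1 of these clones. Without both, 613 of 13229 genes rose and 456 fell, beside 366 and 294 of 13119 with all clones. Counts without both clones, an alternative chosen after the data were seen, are given below beside many of the list counts. More genes of any kind passed in that fit, so higher list counts there are not read as gains of a list.

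Genes activated by FoxO transcription factors, which enter the nucleus when insulin and growth factor signalling through AKT stops, were the list with the largest share of members that rose. Of 19 tested, 7 rose and 0 fell, beside 2.79% and 2.24% of all genes tested. The median log2 difference was 1.11 beside 0.011 for all genes. Without BE_Co2 and G7, 9 rose and the median was 1.13. The promoter of Txnip, which encodes an inhibitor of glucose uptake and of thioredoxin, is shown because its gene changed most in the list. It is the 250 bases before the RefSeq start (GRCm38.p6, plus strand, chr3:96557707-96557956), 5′ to 3′, with the FoxO motif GTAAACA or its reverse complement in capitals:

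Txnip: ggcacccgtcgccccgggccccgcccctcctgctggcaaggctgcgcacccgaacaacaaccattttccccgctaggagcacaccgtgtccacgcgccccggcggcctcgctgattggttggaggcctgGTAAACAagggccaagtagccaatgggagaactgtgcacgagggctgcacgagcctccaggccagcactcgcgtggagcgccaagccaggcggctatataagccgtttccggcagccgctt

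The match lay 121 bases before the start. Among 20 promoters of the list, this was the 1 with a match (5%). The motif stood in 2.13% of promoters of tested genes and in 3.17% of all 32851 promoters searched on both strands. A match describes letters in this window and does not show a bound site.

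Txnip was at 66.4, 65.3, 42.3 and 95.9 CPM in the non-ciliated and 242, 556, 493 and 487 CPM in the ciliated clones. The lowest ciliated clone, D8, was still above every non-ciliated clone, and the log2 difference was 2.72 (SE 0.33, adjusted p = 0.00849). Gabarapl1, an ATG8-family protein of the autophagosome membrane, was at 38.9, 58.9, 65.4 and 64.3 CPM and 174, 192, 172 and 169 CPM. Its ciliated levels were within a narrow band and rose 3.10-fold (log2 1.63, SE 0.17, adjusted p = 0.00698). Foxo3, a member of the factor family itself, had 24.1, 19.5, 24.1 and 21.5 CPM and 65.6, 44.4, 64.6 and 47.5 CPM, and rose by 1.32 (SE 0.17, adjusted p = 0.00912). Pik3ip1, a membrane inhibitor of PI3K, rose by 1.84 (SE 0.37, adjusted p = 0.0190), and Ypel3, a growth-suppressing gene, by 1.97 (SE 0.35, adjusted p = 0.0149). The clone levels of these genes did not overlap between states.

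Ccng2, an atypical cyclin expressed in resting cells, rose by 1.06 with an adjusted p of 0.0160. Fbxo32, the ubiquitin ligase atrogin-1, rose by 1.25 with an adjusted p of 0.0499, at the edge of the threshold. Foxo1 (0.96, adjusted p = 0.0228) and the insulin receptor gene Insr (0.43, adjusted p = 0.0420) passed the test on p but not the fold limit. Deptor, an inhibitor that binds the mTOR kinase, was among the 12 largest rises that had a mean of at least 10 CPM and no overlap, from 7.85, 3.79, 4.94 and 8.59 CPM to 35.7, 68.6, 44.4 and 28.5 CPM (log2 2.81, SE 0.37, adjusted p = 0.00941).

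**Figure D3:**
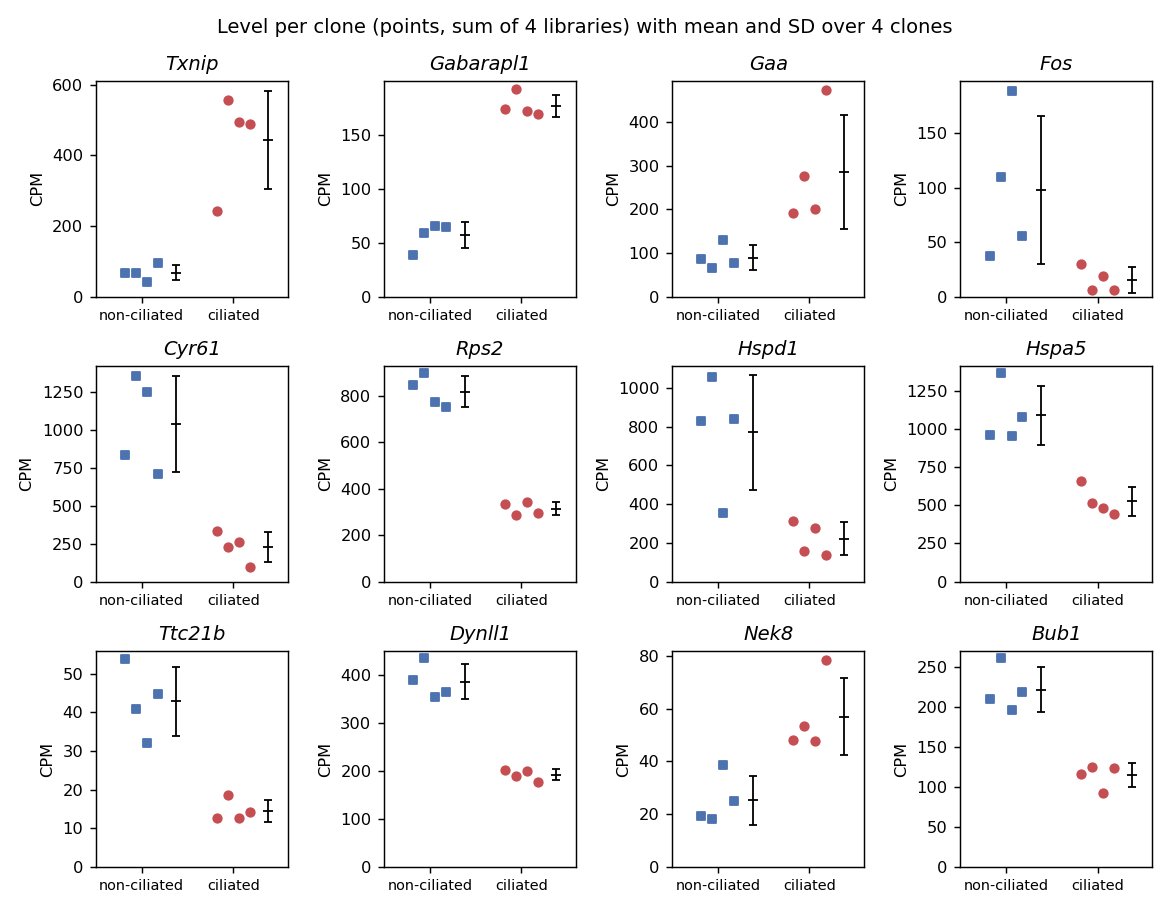
Levels in CPM of 12 genes in the 4 non-ciliated (squares) and 4 ciliated clones (circles), each point the sum of 4 libraries, with the mean and SD over clones beside them. Txnip, Gabarapl1, Gaa and Nek8 lie higher in every ciliated clone and the other genes shown lie lower.

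Genes of lysosomes and autophagy, the compartment and process by which starved cells degrade and recycle their contents, had mostly positive differences. The list as a whole was not tested. Of 45 tested, 7 rose and 0 fell, beside 2.79% and 2.24% of all genes tested. In the list 42 had a positive difference and the median was 0.66. On p alone, 19 were higher and 1 lower, beside 6.11% and 7.33% of all genes. Without BE_Co2 and G7, 9 rose and the median was 0.65. The master regulators of lysosomal genes, TFEB and TFE3, bind the E-box CACGTG. Promoters of Lamp1, the abundant lysosomal membrane glycoprotein (chr8:13158911-13159160), and Gaa, acid alpha-glucosidase (chr11:119267713-119267962), are shown for this letter string, both 250 bases on the plus strand of GRCm38.p6 from RefSeq with the E-box in capitals:

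Lamp1: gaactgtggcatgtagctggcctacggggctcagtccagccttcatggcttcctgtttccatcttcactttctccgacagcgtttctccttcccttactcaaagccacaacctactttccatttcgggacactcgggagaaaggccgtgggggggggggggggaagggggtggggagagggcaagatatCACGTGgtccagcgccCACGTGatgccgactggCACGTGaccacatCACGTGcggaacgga

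Gaa: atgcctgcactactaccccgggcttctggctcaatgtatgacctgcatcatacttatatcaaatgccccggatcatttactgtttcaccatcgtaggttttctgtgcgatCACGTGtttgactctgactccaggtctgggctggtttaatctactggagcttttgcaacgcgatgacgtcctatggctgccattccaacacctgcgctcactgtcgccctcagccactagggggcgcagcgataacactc

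Lamp1 held 4 matches within 15 to 61 bases of the start, and Gaa held 1 at 140 bases. The string occurred in 11 of 43 promoters of the list (25.6%), in 6 of 20 of clock genes (30%), in 3 of 43 of ribosome biogenesis genes (6.98%), in 8.12% of promoters of tested genes and in 6.02% of all promoters. It reads the same on both strands, and promoters of 1 gene can overlap.

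Gaa was at 86.9, 65.2, 129 and 76.1 CPM in the non-ciliated and 191, 278, 201 and 474 CPM in the ciliated clones, without overlap, a log2 difference of 1.68 (SE 0.34, adjusted p = 0.0196). Lamp1 had 836, 765, 879 and 715 CPM and 1079, 1152, 1165 and 1633 CPM. These levels also did not overlap, but the difference of 0.65 (SE 0.16, adjusted p = 0.0359) was below the fold limit. Lamp2, another lysosomal membrane glycoprotein, rose by 1.05 (SE 0.22, adjusted p = 0.0207). Sqstm1, the autophagy receptor p62, had 508, 339.8, 468 and 489 CPM and 1643, 829, 2227 and 825 CPM. D8 and A4 carried higher levels than H12 and G7, and the gene rose by 1.61 (SE 0.34, adjusted p = 0.0226).

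Flcn and Fnip1 encode the folliculin complex, which senses amino acids at the lysosome and controls TFEB through the Rag GTPases. Flcn rose by 1.18 (adjusted p = 0.0327) and Fnip1 by 1.16 (adjusted p = 0.0172). Within each state the highest Flcn level was that of G7 or BE_Co2, at 115 and 55.5 CPM. The lysosomal calcium channel gene Mcoln1 passed the test on p (0.88, adjusted p = 0.0210). Gusb, a lysosomal beta-glucuronidase, was the single member lower on p (-0.86, adjusted p = 0.0468), and its clone levels overlapped.

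Genes for making ribosomes, a costly process driven by growth factors and mTOR, had mostly negative differences, and the list as a whole was not tested. Of 46 ribosome biogenesis genes tested, 5 fell and 0 rose, beside 2.24% and 2.79% of all genes tested. In the list 45 had a negative difference and the median was -0.81. On p alone, 14 were lower and 1 higher, beside 7.33% and 6.11% of all genes. Without BE_Co2 and G7, 9 fell and the median remained -0.81. The median log2 CPM over the list was 6.60, 7.20, 6.10 and 6.97 in the non-ciliated and 6.36, 5.58, 6.20 and 5.41 in the ciliated clones. By this median BE_Co2 lay below D8 and A4, so the list's medians overlapped between the states.

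Dkc1, the pseudouridine synthase of nucleolar guide RNAs, was at 78.3, 125, 56.6 and 92.3 CPM and 39.1, 32.2, 37.5 and 28.1 CPM, and fell by 1.36 (SE 0.24, adjusted p = 0.0142). Npm1, the main nucleolar chaperone, had 459, 587, 275 and 433 CPM and 259.5, 148, 203 and 124 CPM, with a log2 difference of -1.25 (SE 0.29, adjusted p = 0.0285). Ciliated D8 approached non-ciliated BE_Co2 for both, without overlap. Mybbp1a, a nucleolar MYB-binding protein, changed by -1.19 (adjusted p = 0.0373) and Polr1e, a subunit of RNA polymerase I, by -1.01 (adjusted p = 0.0218). Wdr12, a factor of large subunit maturation, changed by -1.41 (adjusted p = 0.0307) with overlapping clone levels. Imp3, of the small subunit processome, was the member higher on p (0.50, adjusted p = 0.0481).

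Of 77 genes of cytosolic ribosomal proteins, 8 fell and 0 rose, beside 2.24% and 2.79% of all genes tested. In the list 68 had a negative difference and the median was -0.45. The list medians overlapped slightly between states, with 5.12 log2 CPM in BE_Co2 and 5.13 in D8. Rps2, of the small subunit, was at 846, 898, 775 and 752 CPM and 333, 286, 341 and 297 CPM, a difference of -1.38 (SE 0.12, adjusted p = 0.00698). Rpl35 had 191, 183, 70.9 and 170.5 CPM and 40.9, 27.2, 46.8 and 39.8 CPM, with BE_Co2 low among non-ciliated clones, and a difference of -1.99 (SE 0.32, adjusted p = 0.0121). Rpl27 changed by -1.49 (adjusted p = 0.0121). Ribosomal protein genes share reads with near-identical processed pseudogenes, and the treatment of reads with several matches is not given in the sources used here, so their levels are uncertain.

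Some chaperone genes were lower. Of 13 heat shock proteins tested, 4 fell and 0 rose, beside 2.24% and 2.79% of all genes tested. The median was -0.79, and without BE_Co2 and G7 5 fell. Of 20 chaperones of the endoplasmic reticulum (ER), 3 fell and 0 rose, and 10 were lower on p, beside 7.33% of all genes. In this list 8 had a positive difference and the median was -0.68. The list medians of the ER chaperones overlapped between states, at 6.72 to 7.04 log2 CPM in the non-ciliated clones and 6.59 to 6.94 in the ciliated clones. Hspd1 and Hspe1 encode the mitochondrial chaperonin HSP60 and its lid HSP10, which are transcribed in opposite directions from a shared promoter. The side towards Hspe1 (GRCm38.p6, plus strand, chr1:55087898-55088147) is shown with heat shock elements in capitals, searched as GAA, TTC and GAA each 2 bases apart:

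Hspe1: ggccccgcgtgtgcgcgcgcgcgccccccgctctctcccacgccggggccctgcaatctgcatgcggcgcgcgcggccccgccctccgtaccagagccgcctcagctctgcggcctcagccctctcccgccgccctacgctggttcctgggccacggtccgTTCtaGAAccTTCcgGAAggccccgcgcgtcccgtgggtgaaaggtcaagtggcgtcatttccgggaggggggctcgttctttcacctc

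Its 2 matches overlap and start 84 and 89 bases before the start of Hspe1. Matches stood in 2 of 12 promoters of the list (16.7%), in 0.396% of promoters of tested genes and in 0.466% of all promoters. The 2 were those of Hspe1 and Hspd1, which share the promoter, so they do not count as independent. The promoters of Hspa5, the ER chaperone BiP (plus strand, chr2:34771840-34772089), and Hsp90b1, the ER chaperone GRP94 (minus strand, chr10:86705445-86705694), are shown with the ER stress element in capitals, a CCAAT and a CCACG 9 bases apart:

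Hspa5: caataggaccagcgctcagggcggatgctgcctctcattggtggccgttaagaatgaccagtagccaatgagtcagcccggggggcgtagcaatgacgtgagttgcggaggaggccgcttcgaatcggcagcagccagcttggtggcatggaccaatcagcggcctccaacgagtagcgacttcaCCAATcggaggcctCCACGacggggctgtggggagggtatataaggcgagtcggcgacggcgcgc

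Hsp90b1: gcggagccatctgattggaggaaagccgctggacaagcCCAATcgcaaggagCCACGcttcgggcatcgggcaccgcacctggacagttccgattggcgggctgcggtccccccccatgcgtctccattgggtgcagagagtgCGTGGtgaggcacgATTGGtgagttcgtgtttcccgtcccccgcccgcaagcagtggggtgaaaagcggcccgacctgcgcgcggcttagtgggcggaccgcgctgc

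This element stood in 9 of 18 promoters of ER chaperone genes (50%), against 0.137% of promoters of tested genes and 0.113% of all. Genes with the element both fell and did not, as the values below show.

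Hspd1 was at 829.9, 1054, 354 and 841 CPM in the non-ciliated and 311, 157, 277 and 139 CPM in the ciliated clones, a difference of -1.80 (SE 0.39, adjusted p = 0.0227). Hspe1 had 109, 113, 49.3 and 90.6 CPM and 39.1, 26.9, 33.3 and 24.9 CPM, a difference of -1.54 (SE 0.27, adjusted p = 0.0143). In both genes BE_Co2 was the lowest non-ciliated clone and D8 the highest ciliated clone. Hsph1, a nucleotide exchange factor of HSP70, changed most, from 481, 538, 321 and 419 CPM to 159.8, 57.3, 94.9 and 66.3 CPM (-2.22, SE 0.34, adjusted p = 0.0112). Hsp90aa1, the inducible cytosolic HSP90, fell by 1.12 (adjusted p = 0.0301).

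Hspa5 ran at 958, 1363, 955 and 1074 CPM and 659, 518, 481 and 441 CPM, without overlap, and fell 2.07-fold (log2 -1.05, SE 0.18, adjusted p = 0.0135). Calr, the calcium-binding lectin chaperone, differed by -1.05 (adjusted p = 0.0135) and the disulfide isomerase gene Pdia4 by -1.19 (adjusted p = 0.0111). Hsp90b1 passed on p with -0.86 (adjusted p = 0.0190). Among 33 genes of amino acid supply regulated by ATF4, the median was -0.17, and 2 fell and 2 rose without BE_Co2 and G7. With all clones 2 fell and 0 rose, beside 2.24% and 2.79% of all genes tested. These were Psat1, of serine synthesis (-1.65, adjusted p = 0.0300), and Iars, the isoleucine tRNA synthetase (-1.09, adjusted p = 0.00912).

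Genes that answer serum and cell tension in culture gave mixed shares against all genes. Over the lists of immediate early genes, ERK feedback, YAP, SRF and TGF-beta targets, 2 of 93 genes rose and 6 fell, 8.60% together beside 5.03% of all genes tested. On p alone 2 were higher and 7 lower, beside 6.11% and 7.33% of all genes, and clone levels did not overlap for 4 higher and 9 lower genes, beside 10.1% and 12.3%. Of 24 immediate early genes, 1 fell and 0 rose, with a median of 0.13, and of 15 feedback genes of the ERK pathway, 0 passed the adjusted p, with a median of -0.16. Without BE_Co2 and G7, 0 genes of either list passed the thresholds on p and fold, and the medians were 0.43 and 0.057. Fos, a subunit of AP-1, was the immediate early gene that fell, at 37.2, 109.6, 189 and 55.7 CPM and 29.9, 6.02, 19.3 and 5.87 CPM. D8 and AB_Co came close to each other, and the difference was -2.68 (SE 0.70, adjusted p = 0.0403). Cyr61, a matrix protein and common readout of YAP, had 832, 1356, 1251 and 708 CPM and 332, 231, 261 and 96.8 CPM, a difference of -2.17 (SE 0.38, adjusted p = 0.0143). It was 1 of 2 YAP targets that fell among 19 tested, and 1 fell without BE_Co2 and G7. The other was the receptor kinase gene Axl (-1.48, adjusted p = 0.0377), whose levels overlapped because AB_Co had 222 CPM and D8 had 228.

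Among 17 cytoskeletal targets of SRF and its cofactors MRTF, 2 fell and 1 rose, beside 2.24% and 2.79% of all genes tested. Their median was -0.71, and without BE_Co2 and G7 0 rose or fell. Actb, cytoplasmic beta-actin, was at 3473, 4371, 3457 and 3966 CPM and 2018, 1862, 2114 and 1427 CPM and fell 2.06-fold (log2 -1.04, SE 0.17, adjusted p = 0.0126). Tagln, the actin-binding protein transgelin, was below 12 CPM in every clone, fell by 2.14 (adjusted p = 0.0376) and overlapped between states in AB_Co and D8. The LIM protein gene Fhl1 rose by 2.09 (adjusted p = 0.0333). In the TGF-beta and BMP list of 20 genes, 1 rose and 1 fell, whereas without BE_Co2 and G7 1 rose and 6 fell of 21. Tgfb1, the ligand, rose from 37.3, 29.3, 41.7 and 37.6 CPM to 114, 87.7, 140.2 and 80.4 CPM (1.53, SE 0.20, adjusted p = 0.00956). Id1, a BMP target, fell by 2.0 (adjusted p = 0.0412) with overlapping levels.

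Proliferation genes of S phase and of mitosis differed in their counts, a difference that was not tested. Of 54 DNA replication genes, 0 rose or fell (1 rose without BE_Co2 and G7), with a median of 0.0060. On p, 5 were higher and 1 lower, beside 6.11% and 7.33% of all genes. Of 65 genes of G2/M and mitosis, 0 passed the fold limit (1 fell without BE_Co2 and G7), but 12 were lower and 0 higher on p, beside 7.33% and 6.11% of all genes. In this list 52 differences were negative, 15 genes were lower without overlap (12.3% of all genes) and the median was -0.26. Mki67, which encodes the proliferation antigen Ki-67, was at 414, 507, 511 and 421 CPM in the non-ciliated and 361, 406, 359 and 629 CPM in the ciliated clones. G7 had the highest level of all 8 clones, and the difference of -0.080 (SE 0.20, adjusted p = 0.819) did not exceed the spread between clones.

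Bub1, a kinase of the spindle checkpoint, had 210.4, 261, 196 and 218 CPM and 117, 125, 92.8 and 124 CPM, without overlap and with a difference of -0.95 (SE 0.14, adjusted p = 0.0102). Aurka, the mitotic kinase that also promotes cilium disassembly, was lower by p (-0.80, adjusted p = 0.0135), as was the polo-like kinase gene Plk1 (-0.67, adjusted p = 0.0190). E2f1, the transcription factor of S-phase entry, was higher by p (0.89, adjusted p = 0.0191), and so was Pcna, the sliding clamp (0.60, adjusted p = 0.0330). Rrm1, of the ribonucleotide reductase, was lower (-0.60, adjusted p = 0.0182).

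Of 17 genes of G1 cyclins, CDK inhibitors and pocket proteins, 1 rose and 1 fell with all clones, beside 2.79% and 2.24% of all genes tested. Without BE_Co2 and G7, 5 rose and 2 fell. Ccnd1, the D-type cyclin induced by growth factors, was at 306, 328, 2.93 and 433 CPM and 40.7, 19.6, 85.1 and 2.11 CPM. BE_Co2 and G7 were far below the others of their state, so the levels overlapped and the difference of -2.86 (SE 1.32, adjusted p = 0.176) did not pass. Without these clones it was -2.87 with an adjusted p of 0.0139. The CDK inhibitor p27, encoded by Cdkn1b, had 76.1, 95.2, 167 and 102 CPM and 180.3, 186, 200.5 and 387 CPM. These did not overlap, but the difference of 1.11 (SE 0.33) had an adjusted p of 0.0557 with all clones and 0.00849 without BE_Co2 and G7. Cdkn1a, which encodes p21, had 263, 113, 26.7 and 126 CPM and 366, 421, 438 and 65.6 CPM and did not pass with all clones (1.29, adjusted p = 0.253), but did without BE_Co2 and G7 (1.29, adjusted p = 0.0345). Of 25 p53 targets, 3 fell and 1 rose, beside 2.24% and 2.79% of all genes tested, and without BE_Co2 and G7 3 fell and 2 rose. Ccng1 (-1.58, adjusted p = 0.0128), Plk2 (-1.35, adjusted p = 0.0236) and the RNA-binding factor gene Zmat3 (-1.17, adjusted p = 0.0267) were lower, whereas the apoptosis gene Bbc3 was higher (1.22, adjusted p = 0.0151).

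**Figure D4:**
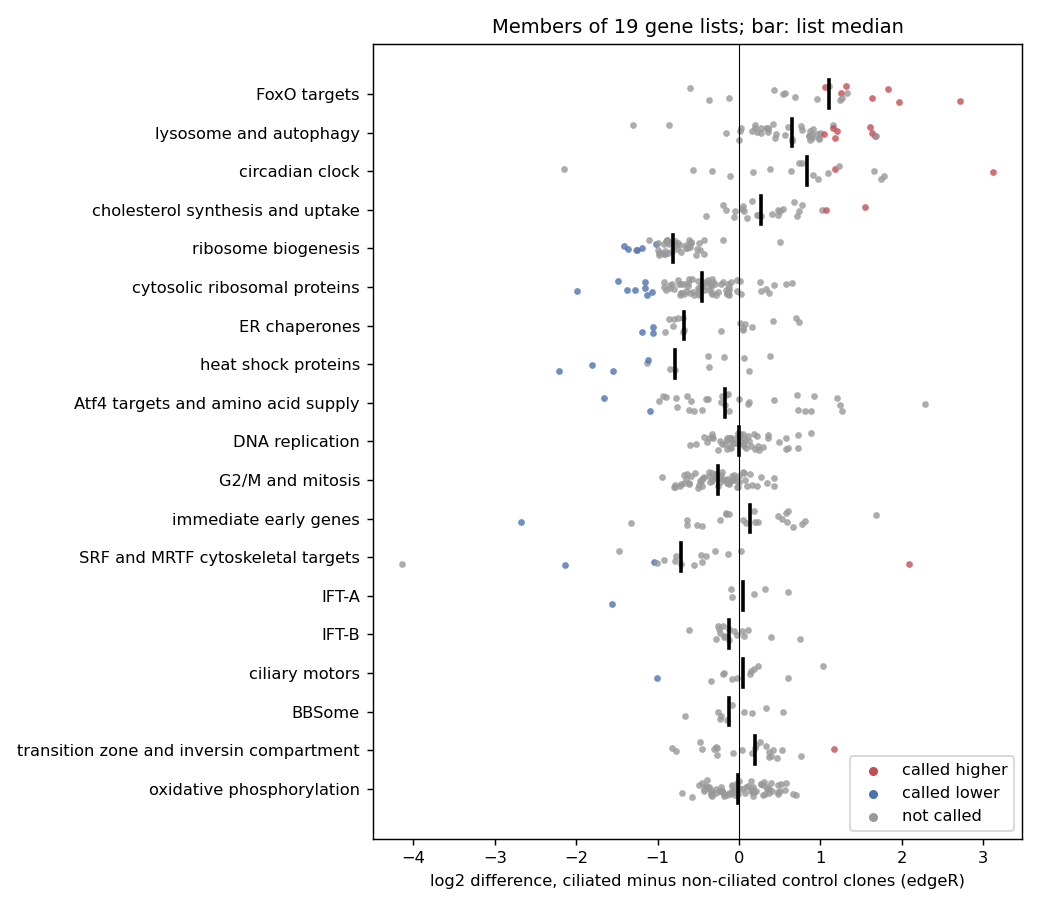
Log2 difference between ciliated and non-ciliated control clones for the tested members of gene lists, each point 1 gene, with a bar at the list median and genes that rose or fell coloured. FoxO targets (median 1.11) and lysosome genes (0.66) lie mostly above 0, ribosome biogenesis genes (-0.81) mostly below, and IFT genes around 0.

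Genes that build the cilium had small differences in most cases, with clone levels separated about as often as for all genes. Across 7 lists of ciliary structure and transport, 101 genes were tested, of which 1 rose, 2 fell, and 81 had an absolute log2 difference under 0.5. That is 2.97% called in either direction and 80.2% under 0.5, beside 5.03% and 60.9% of all genes tested. Clone levels did not overlap for 21.8% of the ciliary genes and 22.4% of all genes. The median difference was -0.040. Of 17 IFT-B genes, 0 passed the adjusted p and differences ran from -0.62 to 0.76. The 10 BBSome genes had a median of -0.12 and 0 calls, the 18 of ciliary membrane and cargo 0.14 and 0 calls, and the 15 of basal body and distal appendages -0.14 and 0 calls. RNA levels do not measure the proteins in the cilium.

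Ttc21b, which encodes the IFT-A subunit IFT139, was at 53.7, 40.8, 32.1 and 44.6 CPM in the non-ciliated and 12.6, 18.5, 12.6 and 14.3 CPM in the ciliated clones. Every ciliated clone was below every non-ciliated clone, and the gene fell 2.95-fold (log2 -1.56, SE 0.20, adjusted p = 0.00941). It was the 1 of 6 IFT-A genes that passed. Dynll1, a light chain shared by dynein-1, dynein-2 and other complexes, had 389, 436, 353 and 365 CPM and 201, 189.8, 199.8 and 176 CPM, a difference of -1.01 (SE 0.11, adjusted p = 0.00698). Nek8, a kinase of the inversin compartment, rose from 19.3, 18.3, 38.5 and 25.1 CPM to 48.2, 53.4, 47.8 and 78.7 CPM (1.17, SE 0.28, adjusted p = 0.0296).

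Wdr34 was at 31.4, 22.2, 25.0 and 26.8 CPM and 43.5, 42.9, 41.9 and 32.5 CPM. All ciliated levels were above the non-ciliated ones, G7 by little, and the difference of 0.61 (SE 0.15, adjusted p = 0.0374) passed on p without reaching the fold limit. Wdr60 had 25.5, 20.6, 25.6 and 25.3 CPM and 25.3, 23.9, 24.2 and 22.1 CPM, and its difference of -0.021 (SE 0.13, adjusted p = 0.929) was smaller than the spread between clones. Kif17, a ciliary kinesin, was below 2 CPM in all clones and did not pass (1.03, adjusted p = 0.211). Arl13b, whose protein was stained in the study to see the cilia, had 27.9, 25.1, 28.1 and 27.5 CPM and 29.5, 25.6, 32.8 and 30.8 CPM (0.13, SE 0.12, adjusted p = 0.510).

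Smaller differences passed on p in a few further ciliary genes. Adcy6, an adenylyl cyclase found in the ciliary membrane, was higher by 0.68 (adjusted p = 0.0233). Ttc8, of the BBSome, was lower (-0.66, adjusted p = 0.0250), as were Cep290, of the transition zone (-0.77, adjusted p = 0.0297), and Ccp110, whose protein caps centrioles and blocks ciliation (-0.58, adjusted p = 0.0144). Of 10 hedgehog pathway genes, 0 passed the adjusted p, with a median of -0.051, and without BE_Co2 and G7 1 fell. In the list of RFX factors and motile cilium genes 1 of 12 rose, beside 2.79% of all genes tested. It was the radial spoke gene Rsph9 at 1.62 to 5.15 CPM (1.02, adjusted p = 0.0395).

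Differentiation genes of the collecting duct gave 1 rise and 1 fall among 16 tested, beside 2.79% and 2.24% of all genes. Their median was 0.39. Cdh16, the kidney-specific cadherin, was at 229, 212, 266 and 248 CPM and 338, 453, 376 and 836 CPM (1.07, SE 0.28, adjusted p = 0.0411). Gata2, a transcription factor of principal cells, was below 8 CPM in every clone and fell by 2.38 (adjusted p = 0.0182). Tfcp2l1, a collecting duct transcription factor, was higher on p (0.82, adjusted p = 0.0307). Nfat5, the tonicity-responsive factor, rose by 1.05 (adjusted p = 0.0249), the 1 rise among 3 osmolyte genes, of which 0 rose without BE_Co2 and G7. With 3 genes tested, nothing is read from that count.

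Of 7 mesenchymal markers tested, 2 fell and 0 rose (3 fell without BE_Co2 and G7), beside 2.24% and 2.79% of all genes tested. All 7 differences were negative and the median was -1.42. The fibroblast and motility gene S100a4 was below 9 CPM and fell by 2.29 (adjusted p = 0.0156), and Cdh2, N-cadherin, fell by 1.42 (adjusted p = 0.0458) with overlapping levels. Vim, the intermediate filament vimentin, had 49.4, 420.3, 659 and 254 CPM and 30.7, 17.6, 3.51 and 145 CPM. Clones varied within each state by over an order of magnitude, and the difference of -2.81 did not pass (adjusted p = 0.125), and without BE_Co2 and G7 it was -3.81 (adjusted p = 0.0361). Among 18 genes of epithelial junctions and keratins, 0 passed the adjusted p, with a median of 0.62, whereas 6 rose and 1 fell without BE_Co2 and G7. Cldn8, a claudin of the distal nephron, had 2.57, 0.580, 0.0819 and 0.133 CPM and 16.5, 25.9, 17.9 and 1.78 CPM, a difference of 4.20 with an adjusted p of 0.0548 that was 0.0250 without these clones. Epcam then also passed, with 1.41 and an adjusted p of 0.0173 in place of 1.41 and 0.482.

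Most lists of metabolic genes held 1 or 2 rises each, beside 2.79% of all genes tested, so nothing is read from their counts. Insig1, a sterol-regulated ER protein, was at 115, 126, 136 and 179 CPM and 333, 370.4, 306 and 624 CPM (1.55, SE 0.25, adjusted p = 0.0126), and with the sterol transporter gene Stard4 (1.07, adjusted p = 0.0341) made the 2 rises among 25 cholesterol genes, of which 1 rose without BE_Co2 and G7. Srebf1, the lipogenic transcription factor, rose by 1.16 (adjusted p = 0.0151). Ndrg1, a stress- and hypoxia-responsive gene, went from 165, 97.6, 181 and 118 CPM to 976, 332, 796 and 431 CPM (2.18, adjusted p = 0.0136) and was the 1 of 26 glycolysis and hypoxia genes that rose, beside 1 fall without BE_Co2 and G7. Mt1, the metal-binding metallothionein, rose from 51.9, 51.4, 30.1 and 40.4 CPM to 160.3, 206, 231 and 172 CPM (2.15, SE 0.21, adjusted p = 0.00698), the 1 rise among 19 NRF2 and metallothionein genes, of which 3 rose without BE_Co2 and G7.

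The 18 clock genes had a median of 0.84, and without BE_Co2 and G7 8 rose. With all clones 2 rose and 0 fell, beside 2.79% and 2.24% of all genes tested. These were Per2, a repressor of the clock (1.18, adjusted p = 0.0135), and the nuclear receptor gene Rora (3.12, adjusted p = 0.0136). The time of day of each harvest was not analysed here. Of 34 interferon response genes, 2 rose, beside 2.79% of all genes tested. They were Irf7 (1.85, adjusted p = 0.0437) and the immunoproteasome gene Psmb8 (2.34, adjusted p = 0.0444), both under 8 CPM. In that list 32 differences were positive and the median was 0.75, and without BE_Co2 and G7 0 genes rose. Of 73 genes of oxidative phosphorylation, 0 rose or fell, with a median of -0.011.

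The largest rises and falls were taken from called genes with a mean of at least 10 CPM and no overlap between the states, 228 higher and 188 lower. Papln, an extracellular matrix proteoglycan, rose by 2.99 (adjusted p = 0.0353), with 55.1 CPM in G7 and 11.3 to 12.9 CPM in the other ciliated clones. Mylip, the ubiquitin ligase that degrades the LDL receptor, had 6.32, 3.79, 13.8 and 3.25 CPM and 17.9, 35.4, 21.5 and 106 CPM (2.74, adjusted p = 0.0389). In both genes BE_Co2 was also the highest non-ciliated clone. Csf1r, the receptor of macrophage colony-stimulating factor, rose from 21.4, 26.7, 47.7 and 49.0 CPM to 184, 260.0, 167 and 293 CPM (2.64, SE 0.33, adjusted p = 0.00903). The immune marker Ptprc was below 1 CPM in all 8 clones.

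Piezo2, a mechanically gated ion channel, had 102, 89.7, 49.9 and 72.7 CPM and 456, 618, 638 and 248 CPM (2.64, SE 0.34, adjusted p = 0.00941). Crebrf, a regulator of the starvation and ER stress response, rose 6.01-fold (log2 2.59, SE 0.29, adjusted p = 0.00727). The other members of the 12 were Akr1c19 (2.64), Efhd1 (2.54), Parm1 (2.51), the linker histone gene Hist1h1c (2.45) and Macrod1 (2.43), with adjusted p from 0.00698 to 0.0268.

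Among the falls, Lsp1, an actin-binding protein, came first with -4.57 (SE 1.08, adjusted p = 0.0296), from 1.89, 18.5, 45.0 and 13.4 CPM to 1.71, 0.180, 0.281 and 1.15 CPM. AB_Co and D8 were nearly level, so its size rests on the other clones. Fst, the activin-binding follistatin, was at 66.0, 342, 133 and 158 CPM and 29.2, 3.54, 14.1 and 5.09 CPM (-3.75, SE 0.79, adjusted p = 0.0215). Cubn, an endocytic receptor of the proximal tubule, fell from 14.3, 23.2, 13.2 and 17.8 CPM to 3.32, 2.85, 2.99 and 3.24 CPM (-2.46, SE 0.23, adjusted p = 0.00698), with little spread in the ciliated clones. Ppa1, the cytosolic pyrophosphatase, changed by -2.46 (adjusted p = 0.0145), and the drug efflux transporter gene Abcg2 by -2.46 (adjusted p = 0.0156). Also lower were Map3k7cl (-2.53, adjusted p = 0.00974), Sh3bp5 (-2.03, adjusted p = 0.00698) and D630045M09Rik (-2.38, adjusted p = 0.0247), beside Fos, Hsph1, Cyr61 and Rpl35 above.

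The same change of state was read in the mutant clones, which share no library with the controls. There were 3 ciliated clones, 2 of Wdr34 and 1 of Wdr60, and 2 non-ciliated clones, 1 of each gene, again with state, serum and sequencing time changing together. Of 13305 genes tested, 475 rose (3.57%) and 491 fell (3.69%). Scaled by library totals alone, 622 rose and 352 fell, and the median difference of all genes moved from 0.035 to 0.17. Of the 366 genes that rose in controls, 364 were tested in mutants, all 364 had a positive difference, 347 had clone levels without overlap and 194 rose. Of all genes tested in mutants, 26.1% were higher and 27.4% lower without overlap. The median was 1.36 in controls and 1.52 in mutants. Of the 294 that fell in controls, 293 were tested, 290 had a negative difference, 269 did not overlap and 180 fell, with medians of -1.28 and -1.43. The 3 with a positive sign in mutants were Fam131b, Itgb3 and Medag, chosen here for that sign, and none of their mutant differences passed (adjusted p = 0.876, 0.802 and 0.443). Over 12939 shared genes, the differences correlated at Pearson's r = 0.76 and Spearman's rho = 0.83 and had the same sign for 86.3%, as a description across genes, which are not independent replicates.

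**Figure D5:**
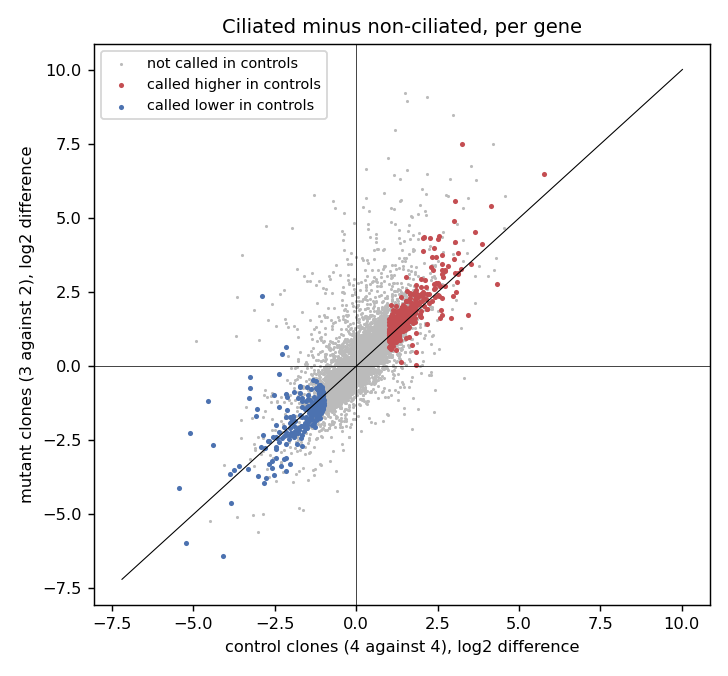
Log2 difference between ciliated and non-ciliated clones in controls (horizontal) and in mutants (vertical), each point 1 gene, with genes called in controls coloured by direction. Of the control-called genes tested in mutants, 364 of 364 higher genes and 290 of 293 lower genes kept their sign.

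Single genes are given side by side for both sets of clones. Txnip differed by 2.72 in controls and 3.24 in mutants (adjusted p = 0.0222), Gabarapl1 by 1.63 and 2.22 (adjusted p = 0.0210), and Lamp2 by 1.05 and 1.43 (adjusted p = 0.0273). Ttc21b was lower in both, by -1.56 and -1.92 (adjusted p = 0.0195), and Hspd1 by -1.80 and -2.10 (adjusted p = 0.0195). Rps2 had -1.38 and -1.79 (adjusted p = 0.0195), and Csf1r 2.64 and 3.44 (adjusted p = 0.0195). Other genes differed more in size, with 2.99 and 4.91 for Papln (adjusted p = 0.0530) and 2.54 and 4.4 for Efhd1 (adjusted p = 0.0239). The difference between the sets was tested only by the interaction below.

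Some genes that missed a threshold in controls passed it in mutants. Ccnd1 had a mutant difference of -4.98 (adjusted p = 0.0222), Bub1 by -1.13 (adjusted p = 0.0222), and Cdkn1b rose by 1.46 (adjusted p = 0.0230). Of 46 ribosome biogenesis genes, 33 fell in mutants, with a median of -1.20. FoxO targets had a median of 1.02 with 8 of 19 risen, lysosome genes 0.69 with 12 of 45 risen, immediate early genes -0.56 with 6 of 24 fallen, and ERK feedback genes -0.96 with 6 of 16 fallen. Of all genes tested in mutants, 3.57% rose and 3.69% fell, with a median of 0.035. Lsp1, first among the falls chosen above, did not pass in mutants (-1.16, adjusted p = 0.546), where its levels overlapped. Without any 1 of 4 of the 5 mutant clones, 0 genes rose or fell, so single values in mutants rest on few clones.

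The interaction of state and genotype was tested over all 13 clones as the labels name them, which are more than the distinct lines if a line was sampled in both states. Of 13994 genes, edgeR called 0 at the adjusted p, with a smallest adjusted p of 1.0, and 136 had an unadjusted p below 0.05 (0.972%). DESeq2 on the same clone sums called 1 gene with a larger difference in mutants and 0 with a smaller one. A p that misses the threshold does not show that controls and mutants changed alike.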

How the data were processed

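The deposited files held raw read counts per gene, which the authors made from paired-end reads of poly(A) RNA with Rsubread and featureCounts against GRCm38/mm10. The submitters' processing notes name R 3.4.4 and DESeq2 1.18.1 for later steps. Strand setting and handling of reads with several matches are not given in the sources used here. The files held 24421 symbols, 95.0% of which matched RefSeq. The members and gene lists were chosen with earlier results of these data known.

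Counts of the 4 technical replicate libraries of each clone were added and the 8 control clones compared with edgeR 4.0.16 in R 4.3.3 (TMM scaling, filterByExpr with a minimum count of 10, quasi-likelihood test, Benjamini-Hochberg adjustment over all genes tested). A call needed an adjusted p below 0.05 and a log2 difference of at least 1 in size. Clones were the unit because the libraries of a clone are technical replicates, and p-values measure the spread between clones. The same fit was made in 3 ciliated and 2 non-ciliated mutant clones, and an interaction over 13 clones. Their alleles were not analysed here. The script was tested on simulated data.

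Genes named are chosen members of the lists, Wdr34 and Wdr60, and the 12 largest changes in each direction among called genes with a mean of at least 10 CPM and clone levels without overlap. A few list members are counted but not reported here by name. The 48 pairs of replicate libraries had a chi-square per degree of freedom of 1.99 to 86.2 (median 5.13), and 0 pairs were identical. Alternatives used libraries as samples, a replicate block, limma 3.58.1 (voomLmFit), DESeq2 1.42.0, other scalings, filters and thresholds, and each clone or replicate number left out. Promoters were 250 bases before each RefSeq start.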

Additional observations from a re-analysis of the deposited data

Results flagged for a closer look

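Each group of 4 clones was searched for a clone far from the other 3, by Dixon's ratio, in 109 genes. In 218 groups 22 clones stood apart (10.1%). Chance gives about 1 in 20 for independent genes picked without the data. These genes were chosen with earlier results known and the same clones recur among them, so nothing is read from this share. The values below are given without an explanation.

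Library 4 of G7 had 28084979 counts and 14123 genes with a count, more than the other 3 libraries of that clone at 16052187 to 16549441 counts and 13476 to 13570 genes. Clone sums weight it by its depth. Its chi-square per degree of freedom against the other libraries of G7 was 43.9 to 68.8, beside 2.87 to 11.2 among those. Library 1 of AB_Co was at 76.5 to 86.2, beside 2.65 to 5.53 among the other libraries of that clone. Library 1 of A4 was at 27.6 to 58.6, beside 5.56 to 10.6.

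In G7 the level was apart from the other ciliated clones for Papln (55.1 CPM), Macrod1 (22.1 CPM), Flcn (115 CPM), Cdkn1a (65.6 CPM), Cdkn1b (387 CPM), Wdr34 (32.5 CPM), Epcam (13.5 CPM) and Cldn8 (1.78 CPM). In BE_Co2 it was apart from the other non-ciliated clones for Papln (6.58 CPM), Rpl35 (70.9 CPM), Flcn (55.5 CPM), Lamp2 (282 CPM), Ccnd1 (2.93 CPM), Cep290 (41.5 CPM) and Epcam (2.89 CPM). Papln, Flcn and Epcam thus stood apart in both clones, in the same direction within each state.

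D8 was low for Txnip (242 CPM) and Efhd1 (17.4 CPM) and high for Tagln (2.39 CPM) among ciliated clones. AB_Co was high for Parm1 (9.68 CPM) and low for Axl (222 CPM), and BE_Co1 was low for Ccng2 (48.0 CPM) and Wdr60 (20.6 CPM), among non-ciliated clones.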

How the results depend on the processing

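State, serum and sequencing time changed together, 4 clones stand for each state, and libraries of a clone are not independent, so tests on libraries overstate the evidence. The labels share replicate numbers, but libraries of the same number did not deviate together (correlations -0.21, 0.022, -0.018 and -0.25), so the numbers do not pair samples. In every alternative, all genes called with all clones that were tested kept their direction (660 of 660 where none was filtered out). Most of these genes had clone levels without overlap between the states, so a change of sign was unlikely from the outset. Among 79 named genes that rose or fell, 1560 of 1887 values under alternatives stayed past the thresholds, 327 did not and 0 changed sign, and 19 genes passed in every alternative. The alternative without a fold limit used the same fit, so it could lose no call.

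In controls, 366 genes rose and 294 fell. With libraries as samples the counts were 746 and 473, and with the replicate block 841 and 585. DESeq2 gave 595 higher on clone sums, and 783 and 470 on libraries. The adjusted p without a fold limit gave 802 and 962, and an adjusted p below 0.01 gave 58 and 52. Without G7 and BE_Co2, an alternative chosen after seeing the data, 613 rose and 456 fell. Leaving out each clone in turn gave 89 to 524 higher and 75 to 417 lower. The cause of these shifts was not tested, apart from the thresholds.

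In mutants, 475 rose and 491 fell. Libraries as samples gave 1279 and 747, the replicate block 1508 and 803, voomLmFit 920 higher, DESeq2 1000 higher on clone sums and 1276 and 761 on libraries, no fold limit 938 lower, and an adjusted p below 0.01 gave 0 in each direction. Leaving out a clone gave 0 to 773 and 0 to 638, and leaving out a replicate number 350 to 501 and 399 to 537. The interaction, with 0 calls, gave 141 larger and 8 smaller differences with libraries as samples, 110 and 7 with the replicate block, 1 larger with DESeq2 on clone sums, and 211 and 22 with DESeq2 on libraries.

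Of distinct list members, 67 of 946 were called. The alternatives gave 138 with libraries, 148 with the replicate block, 127 with voomLmFit, 101 and 144 with DESeq2 on clone sums and libraries, 151 without a fold limit, 11 at an adjusted p below 0.01, 107 without G7 and BE_Co2, and 17 to 104 with a clone left out. Of 40 list medians, 18 changed sign under at least 1 alternative, all with a size of at most 0.28 with all clones. Among named genes, the Mki67 and Wdr60 differences did. The Mki67 difference was 0.033 without D8, 0.0076 without A4 and 0.060 without replicate 4, and over all clones left out in turn it ran from -0.30 to 0.033. The Wdr60 difference was 0.0031 with DESeq2 on libraries, 3.2e-05 with RLE size factors, 0.044 with library totals, 0.042 without G7 and BE_Co2, and -0.080 to 0.015 with a clone left out. The IFT-B median ran from -0.27 to 0.030 with a clone left out, the latter without AB_Co.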

Other observations

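Some gene groups outside the comparisons above are given as values. Of 27 genes of collagens and matrix, 0 rose or fell, with a median log2 difference of -0.091 in controls and 0.65 in mutants, where 2 rose; without BE_Co2 and G7, 1 rose and 1 fell in controls. Of 14 cytokine and NF-kB genes, 0 passed both thresholds, and the median was 0.015, whereas 3 rose without BE_Co2 and G7. Of 17 genes of fatty acid synthesis, 1 rose and the median was 0.051. Of 10 insulin and IGF signalling genes, 0 rose or fell, with a median of -0.042, and 1 rose without BE_Co2 and G7.

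The podocyte list summed to 89.7 to 160 CPM in non-ciliated and 172 to 197 CPM in ciliated clones. That sum came from Synpo, which encodes an actin-associated protein, and Podxl, an apical sialomucin also made by other epithelia, whereas the slit diaphragm gene Nphs1 was at or near 0. Of these 2 tested genes, 0 rose with all clones and 1 without BE_Co2 and G7. Synpo was highest in G7 at 157 CPM and Podxl lowest there at 14.6 CPM. The thick limb list reached 9.84 CPM in 1 ciliated clone, H12, through Umod at 9.71 CPM, which was below 1 CPM in every other clone.

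Of 10 targets of lipophilic serum ligands, 1 rose with all clones and 3 without BE_Co2 and G7, and the median went from 0.13 to 0.77.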
